A study of Mus musculus with 30 samples.

Results

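This comparison is between 4 single cells labelled *Prdm14* (-/-) and 6 single cells labelled *Prdm14* (+/-) that were hybridised in the same array run, out of 30 cells in the series. The cells were chosen by the array code in their titles, which places the series in 3 runs. Run 3 is the only run that holds cells labelled *Prdm14* (-/-), and it holds no cell labelled wild type. The comparison therefore involves no difference between runs. In the following, the 4 cells (numbered 8, 18, 21 and 81 by the labels) are called KO-labelled, and the 6 cells (97, 98, 99, 100, 118 and 119) are called Het-labelled.

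Primordial germ cells (PGCs) found the germ line and later give rise to the gametes. In mouse embryos BMP signals set them apart from the surrounding epiblast, and they shut down the mesodermal program of their neighbours while they regain expression of pluripotency genes. PRDM1 and PRDM14 are transcriptional regulators required for this step, and *Dppa3* (also called *Stella* or *Pgc7*) is a classical marker of established PGCs.

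All cells came from crosses of C57BL/6 mice carrying *Prdm14* (+/-), and the embryos were taken between E7.25 and E7.5, at the early-to-mid stage of the allantois bud. Cells were picked individually from the base of the allantois, their cDNA was amplified, and those positive for *Prdm1* by PCR were taken as PGCs. *Prdm1* was thus part of the selection of the cells. Each cell was hybridised to 1 Affymetrix Mouse Genome 430 2.0 array, and the values are log2 MBEI (model-based expression index) calculated by the authors with dChip. The labels name no embryo, so cells of a genotype may share an embryo. For that reason a genotype counts as 1 sample here, no test was run, and an SD gives the spread from cell to cell. The number of arrays limits the precision of every difference.

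In these 10 cells, 60.3% to 65.7% of all probe sets had a deposited value of 0. Values under 6 on the log2 scale (64 MBEI) were set to that floor, values at the floor have no order, and a gene was called detected when it lay above the floor in at least 3 of the 10 cells. A difference is the mean of the KO-labelled cells minus that of the Het-labelled cells, in log2 units, and differences of at least 1 in size were counted. The number of genes above the floor ranged from 7292 to 7565 in the KO-labelled cells and from 6367 (cell 119) to 7705 in the Het-labelled cells. The array controls at the 5′ end of the actin transcript read 8.94 ± 0.93 (SD, n = 4 cells) in the KO-labelled cells and 9.66 ± 0.87 (SD, n = 6 cells) in the Het-labelled cells, and those at its 3′ end read 12.16 ± 0.24 and 12.42 ± 0.20. The part of this difference in transcript coverage in the results below was not tested.

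The transcript of the targeted gene went against the labels. *Prdm14* (chromosome 1, 13113428 to 13127163 in GRCm38.p6) read 10.03, 12.06, 11.38 and 12.15 in KO-labelled cells 8, 18, 21 and 81. In Het-labelled cells 97, 98, 99, 100, 118 and 119 it read 9.53, 9.92, 10, 6.00, 6.35 and 11.32. All 4 KO-labelled cells thus carried *Prdm14* signal, and the cells without it, or close to the floor, were labelled *Prdm14* (+/-). The difference of means was 2.55, with a pooled SD between cells of 1.81. Where the *Prdm14* probe set lies relative to the deleted part of the gene was not found in the sources used here, so every direction below is that of the labels as deposited. Whether labels were exchanged between the KO-labelled and Het-labelled cells was not tested. Such an exchange would turn the sign of every difference given here. In cells labelled wild type, *Prdm14* was above the floor in 4 of 10 cells of run 1, with a median of 6.00. In run 2 it was above the floor in 2 of 3 such cells, with a median of 9.34. An exchange of labels between KO-labelled cells and cells labelled wild type was not tested either. It would change the genotypes compared, but not the sign of the differences.

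The groups also differed in sex-linked transcripts. *Xist*, the RNA that coats the inactive X chromosome of female cells, was at the floor in KO-labelled cells 8, 18 and 81 and at 8.53 in cell 21. It read between 9.56 and 12.71 in the 6 Het-labelled cells, and the groups did not overlap. *Uty*, a Y-linked gene, read from 8.07 to 10.09 in all 4 KO-labelled cells and was at the floor in all 6 Het-labelled cells. *Eif2s3y*, also Y-linked, was above the floor in 3 of 4 KO-labelled cells and in 0 of 6 Het-labelled cells. The genotype label and the sex-linked pattern run together in these 10 cells, and cannot be told apart. Among the 305 detected X-linked genes the median difference was -0.08, compared with 0.09 over 8929 autosomal genes.

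**Figure D1:**
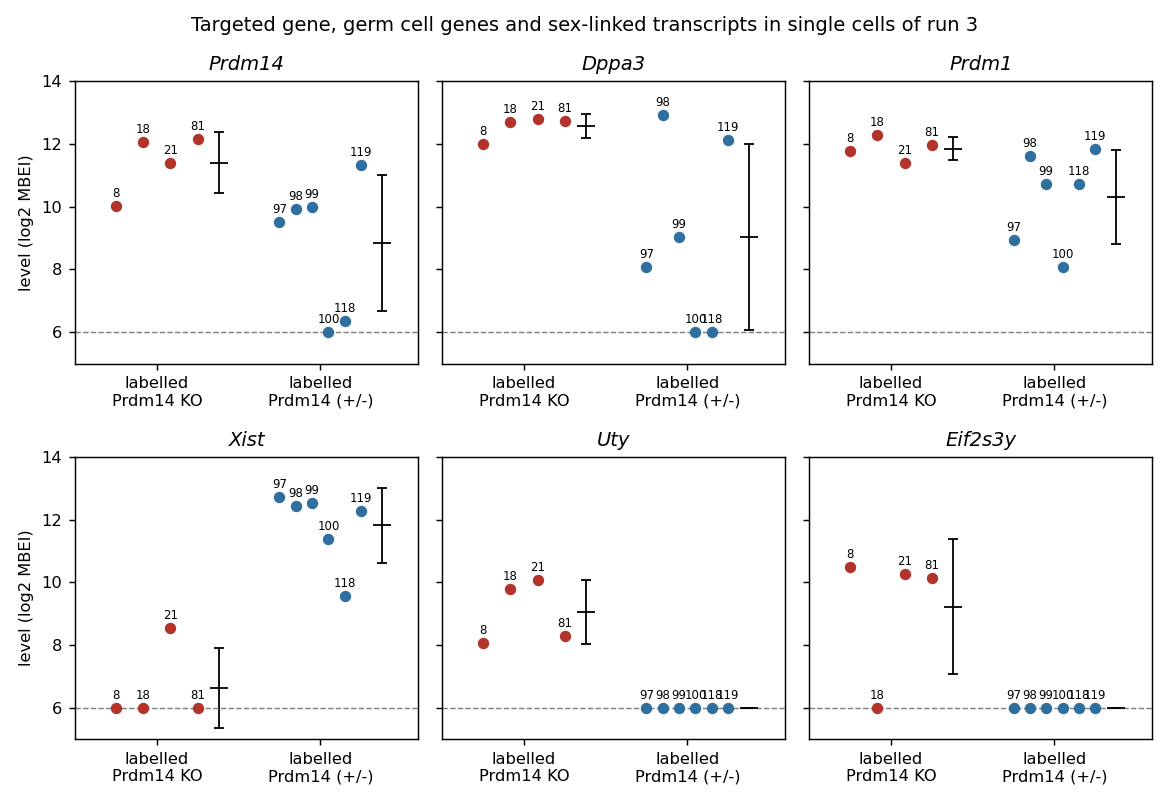
Levels (log2 MBEI, floored at 6, dashed line) of *Prdm14*, *Dppa3*, *Prdm1* and 3 sex-linked transcripts in each cell of run 3; numbers are cell numbers, and black bars give the mean ± SD of the cells of a label. *Prdm14* and *Dppa3* were above the floor in all 4 KO-labelled cells, *Dppa3* was at the floor in Het-labelled cells 100 and 118, and *Uty* was above the floor only in the KO-labelled cells.

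*Dppa3* (chromosome 6, 122626424 to 122630271) was high in every KO-labelled cell and spread widely among the Het-labelled cells. It read 11.98, 12.71, 12.80 and 12.72 in KO-labelled cells 8, 18, 21 and 81. In Het-labelled cells 97, 98, 99, 100, 118 and 119 it read 8.07, 12.92, 9.03, 6.00, 6.00 and 12.12. Cells 98 and 119 thus matched the KO-labelled range or exceeded it, cells 97 and 99 were well below it, and cells 100 and 118 were at the floor. The difference of means was 3.53 with a pooled SD of 2.36, and the groups overlapped. Leaving out each cell in turn gave differences from 2.93 to 4.31. *Prdm1*, on which the cells had been selected, differed by 1.53.

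Across the genome, 9257 of 18194 genes were detected. The KO-labelled cells had 1453 of these (15.7%) higher by at least 1 and 968 (10.5%) lower by at least 1, and the median difference was 0.09. The difference was also larger than the pooled SD between cells for 824 of the higher genes (8.9% of those detected) and for 557 of the lower genes (6.02%). The groups of cells did not overlap for 81 of the higher genes (0.875% of those detected) and 26 of the lower genes (0.281%). Without genes of chromosomes X and Y, 1406 of 8950 genes (15.7%) were higher and 920 (10.3%) were lower. The spread was largest at low and middle levels. The median pooled SD was 1.44 for genes with a mean from 8 to 10 and 0.24 for genes with a mean above 12. Among the 2962 genes above the floor in all 10 cells, 162 were higher and 121 were lower by at least 1. Detected genes at the floor in every KO-labelled cell numbered 249, and those at the floor in every Het-labelled cell 55, in groups of 4 and 6 cells. Over the detected genes, Pearson's r between cells had a median of 0.65 for the 6 pairs of KO-labelled cells, 0.64 for the 15 pairs of Het-labelled cells and 0.62 for the 24 mixed pairs, and the ranges overlapped. Of 502 detected genes that were listed or named, 152 were past 1 in size, and for 53 of these the difference fell below 1 when some 1 cell was left out.

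**Figure D2:**
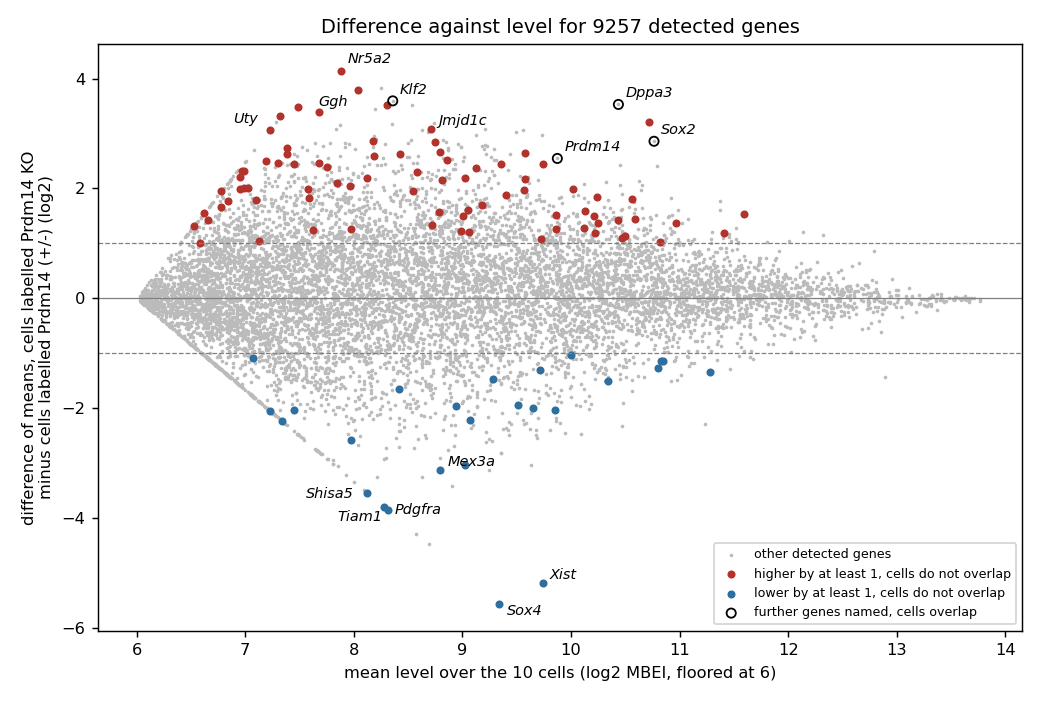
Difference of means (log2, KO-labelled minus Het-labelled) against the mean level over the 10 cells (log2 MBEI, floored at 6) for each of 9257 detected genes. Red (81 genes) and blue (26 genes) mark differences of at least 1 in size in which the cells of the labels did not overlap, and the scatter narrows at high levels; straight edges on the left are set by the floor.

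Among genes whose cells did not overlap and whose higher group had a mean of at least 8, the largest difference was that of *Nr5a2*, an orphan nuclear receptor of pluripotent cells. It read 10.52, 10.75, 9.29 and 10.91 in the 4 KO-labelled cells and was at the floor in 5 of the 6 Het-labelled cells, with 7.33 in cell 99. The difference was 4.15. *Ggh*, a hydrolase of folate polyglutamates, read from 9.96 to 10.86 against at most 7.81, a difference of 3.79. *Palb2*, a partner of BRCA2 in DNA repair, followed at 3.52, with a Het-labelled cell at 10.01 and 4 at the floor. *Jmjd1c*, a JmjC-domain protein of the H3K9 demethylase family, read 10.32, 10.89, 10.32 and 10.72 in the KO-labelled cells and from 6.00 to 9.24 in the Het-labelled cells. The other 11 of the 15 highest genes were *Dyrk3*, *B3gnt2*, *Synj1*, *Erdr1*, *Uty*, *Tmed3*, *Ntan1*, *Clcn2*, *Dock6*, *Kif11* and *Traf3ip2*, with differences between 2.62 (*Traf3ip2*) and 3.48 (*Dyrk3*). *Erdr1* and *Uty* are sex-chromosomal. For 5 of the 15 genes another probe set was detected, and all 5 of these probe sets differed in the same direction.

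On the low side, *Sox4*, an SRY-box transcription factor of progenitor cells, stood out. Its probe set was listed at 0 in all 4 KO-labelled cells and read 10.71, 11.11, 12.24, 12, 11.02 and 12.33 in the Het-labelled cells. The 6 Het-labelled cells thus lay close together, far above the floor. Other *Sox4* probe sets were less clear-cut, with differences of -1.87 and -1.59 for those detected, and the mean over all its probe sets differed by -1.10. *Tiam1*, a Rac exchange factor, and *Pdgfra*, a growth factor receptor of mesoderm, were likewise listed at 0 in all 4 KO-labelled cells. *Pdgfra* read 8.51, 7.73, 9.37, 11.44, 10.91 and 10.83 in Het-labelled cells 97, 98, 99, 100, 118 and 119, and *Tiam1* from 8.02 to 10.99. *Shisa5*, a p53 target of the endoplasmic reticulum, was at the floor in the KO-labelled cells and at 8.17 to 10.51 in the Het-labelled cells. *Mex3a*, an RNA-binding protein, read 6.00, 8.38, 6.00 and 7.32 against 9.12 to 10.61, a difference of -3.12. Beside these and *Xist*, the 15 lowest genes held *Ralgps2*, *Frmd6*, *Vwa5a*, *Cndp2*, *Pawr*, *Btg1*, *Brms1*, *Sec22b* and *Isoc1*, with differences of floored means between -3.03 (*Ralgps2*) and -1.96 (*Isoc1*). The differences of *Btg1* and *Sec22b* rested partly on a KO-labelled cell at the floor, cell 21 and cell 81, without which they were -1.16 and -1.18. In 9 of these 15 genes another probe set was detected, 13 probe sets in all, and each differed in the same direction.

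**Figure D3:**
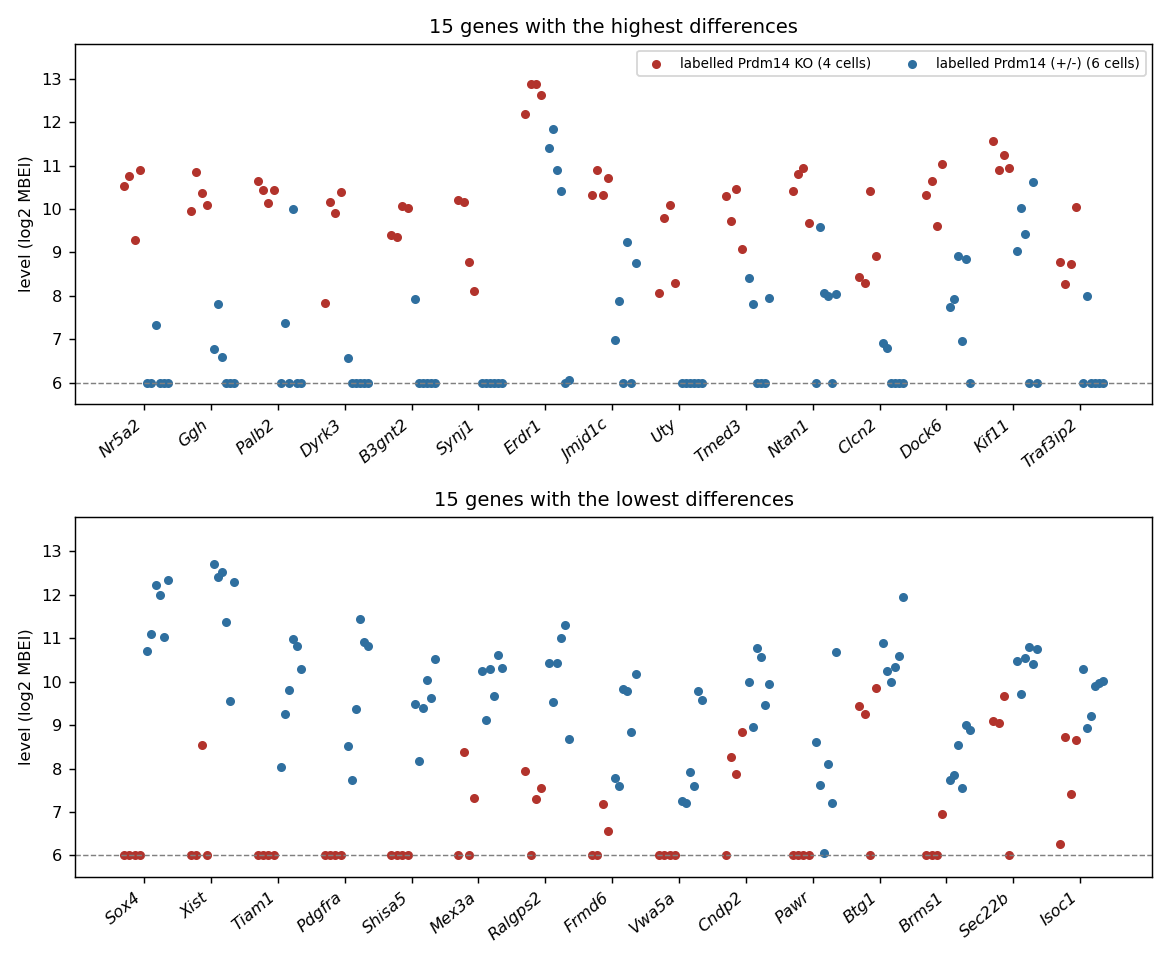
Level (log2 MBEI, floored at 6, dashed line) in each of the 4 KO-labelled (red) and 6 Het-labelled (blue) cells for the 15 genes with the highest and the 15 with the lowest differences among genes whose cells did not overlap. The rule itself separates the cells; 6 of the 15 lowest genes were at the floor in every KO-labelled cell, and 2 of the 15 highest were at the floor in every Het-labelled cell.

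The windows around the transcription starts of *Klf2* and *Sox2*, pluripotency genes that were higher in the KO-labelled cells, and of *Sox4* and *Pdgfra*, are shown as examples from both sides of the comparison, chosen with their values known; the cells of the labels overlapped for the first pair. Each window holds 250 bases before and 50 bases after the start, taken from RefSeq for GRCm38.p6 and written 5′ to 3′ along the gene, with every CG dinucleotide, the site of DNA methylation, in capitals.
*Klf2*, chr8:72318812-72319111, strand +: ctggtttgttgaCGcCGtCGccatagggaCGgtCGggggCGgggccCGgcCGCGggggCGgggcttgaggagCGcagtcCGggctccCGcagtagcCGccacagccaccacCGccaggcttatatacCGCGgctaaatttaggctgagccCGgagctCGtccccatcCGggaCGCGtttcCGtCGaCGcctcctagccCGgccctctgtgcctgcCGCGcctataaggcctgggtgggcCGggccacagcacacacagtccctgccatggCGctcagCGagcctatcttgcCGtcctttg
*Sox2*, chr3:34649745-34650044, strand +: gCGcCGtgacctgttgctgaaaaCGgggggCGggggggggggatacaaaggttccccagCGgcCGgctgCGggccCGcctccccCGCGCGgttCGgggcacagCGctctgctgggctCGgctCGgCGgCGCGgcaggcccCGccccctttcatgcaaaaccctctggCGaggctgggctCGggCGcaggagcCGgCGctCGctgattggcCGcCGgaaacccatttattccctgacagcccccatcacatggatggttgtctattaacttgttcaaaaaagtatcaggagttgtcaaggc
*Sox4*, chr13:28953650-28953949, strand -: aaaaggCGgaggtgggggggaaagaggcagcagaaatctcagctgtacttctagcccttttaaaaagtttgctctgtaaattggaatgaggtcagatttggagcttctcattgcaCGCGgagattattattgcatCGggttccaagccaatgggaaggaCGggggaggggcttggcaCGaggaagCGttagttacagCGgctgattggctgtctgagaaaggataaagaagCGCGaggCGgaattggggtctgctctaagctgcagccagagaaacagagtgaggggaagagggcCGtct
*Pdgfra*, chr5:75152001-75152300, strand +: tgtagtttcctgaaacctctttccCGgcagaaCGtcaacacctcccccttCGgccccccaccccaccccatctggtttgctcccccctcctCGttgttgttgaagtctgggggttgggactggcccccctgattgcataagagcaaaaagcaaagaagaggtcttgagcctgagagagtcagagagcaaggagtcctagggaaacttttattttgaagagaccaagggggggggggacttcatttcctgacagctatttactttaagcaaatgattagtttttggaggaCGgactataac
The windows held 32 CG dinucleotides for *Klf2*, 27 for *Sox2*, 12 for *Sox4* and 5 for *Pdgfra*. The windows of *Nr5a2*, the gene with the largest higher difference, held 2 and 7, and those of *Tiam1*, a lower gene, 7 and 9, so that the counts did not sort by direction. The *Pdgfra* window, the *Tiam1* windows and the *Nr5a2* window with 7 lay inside the annotated gene, away from its outermost start. The medians of higher and lower genes were equal. CG reads the same on both strands, so each dinucleotide was counted once. The median was 23 per window over the 7577 detected genes with a window, 23 over the 1175 that were higher by at least 1 and 23 over the 802 that were lower by at least 1. Windows with fewer than 5 CG made up 3.42% of the detected genes and 16.6% of all 14369 genes with a window.

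Germ cell genes were, as a group, higher in the KO-labelled cells. Of 26 listed genes, 23 were measured and 18 detected, of which 11 were higher by at least 1 and 1 was lower (15.7% and 10.5% of all detected genes). The median of their differences was 1.65, and the median over all detected genes was 0.09. It ranged from 1.19 to 2.05 when each cell was left out in turn. Next to *Dppa3*, the members furthest above were *Epcam* (2.78), an epithelial adhesion protein of PGCs, and *Sox17* (2.71), an endoderm and germ cell transcription factor. *Prdm14*, *Itgb3* (integrin beta 3), *Kit* (the receptor for KIT ligand), *Tfap2c* (an AP-2 factor that acts with PRDM1 and PRDM14) and *Dnd1* (an RNA-binding protein that protects germ cell transcripts) differed by 2.55, 2.49, 2.42, 2.41 and 2.14 (1.39 for *Dnd1* without cell 100). *Itgb3* was at the floor in all 6 Het-labelled cells and above it in 3 of 4 KO-labelled cells. *Mex3a* was the lower member. *Ifitm3* and *Alpl*, the genes of fragilis and of tissue-nonspecific alkaline phosphatase, were above the floor in all 10 cells. Of the listed germ cell genes, *Mex3a* alone had groups that did not overlap, and all 11 higher members overlapped. Over all detected genes, 1.11% were higher and 0.378% were lower without overlap, so a list of 18 would hold few such members in any case.

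The 7 defining germ cell markers chosen for these cells were *Prdm1*, *Prdm14*, *Tfap2c*, *Dppa3*, *Dnd1*, *Nanos3* and *Kit*, of which 6 were measured. All 6 were above the floor in each of the 4 KO-labelled cells. In the Het-labelled cells *Tfap2c* and *Dppa3* were above the floor in 4 of 6 cells, *Prdm14*, *Dnd1* and *Kit* in 5 of 6, and *Prdm1* in 6 of 6. Cell 100 carried *Prdm1* (8.08) and none of the other 5 markers.

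Pluripotency genes were divided. Of 16 detected members, 7 were higher by at least 1 and 1 was lower (15.7% and 10.5% of all detected genes). The other 8 lay within 1, and the median was 0.80. *Klf2*, a Kruppel-like factor of naive pluripotency, read 9.95, 10.73, 10.85 and 10.53 in KO-labelled cells 8, 18, 21 and 81. Among the Het-labelled cells 5 were at the floor, and cell 98 was at 11.52, the highest value of all 10. *Sox2*, a core pluripotency factor, read from 12.17 to 12.72 in the KO-labelled cells and 11.13, 12.46, 10.21, 7.37, 6.00 and 10.56 in the Het-labelled cells, a difference of 2.86. The other core factors differed less, with *Pou5f1* at 0.36 and *Nanog* at 0.47. *Tbx3*, a T-box factor, was the lower member (-1.52). *Esrrb*, *L1td1*, *Zfp296*, *Gdf3* and *Dppa5a* differed by 1.33 to 1.81, of which *Dppa5a* read 0.54 without cell 100 and *Zfp296* 2.80 without cell 81. *Dppa4* and *Tfcp2l1* were at the floor in all 10 cells. The median of the list depended on the cells and on the floor. It was 1.39 without cell 81, 0.30 with a floor of 8 and 1.5 with a floor of 4.

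Genes of the DNA methylation machinery were past 1 about as often as other genes. Of 17 detected members, 2 were higher by at least 1 and 3 were lower (15.7% and 10.5% of all detected genes), with a median of 0.12 that ranged from 0.06 (without cell 118) to 0.35 (without cell 21) when each cell was left out. *Dnmt3b*, a de novo DNA methyltransferase, read 6.00, 9.12, 6.00 and 9.53 in the KO-labelled cells. In Het-labelled cells 97, 98, 99, 100, 118 and 119 it read 11.73, 6.00, 11.15, 12.07, 11.65 and 10.28, so that cell 98 alone overlapped the KO-labelled range. The difference was -2.82. *Uhrf1*, which recruits DNMT1 to newly replicated DNA, and *Dnmt3a* differed by -1.45 and -1.04 (-0.86 without cell 8 and -0.67 without cell 119, respectively), while *Dnmt1*, the maintenance methyltransferase, differed by 0.08. *Tet1*, a 5-methylcytosine hydroxylase, read from 10.39 to 10.95 in the KO-labelled cells and 8.04, 10.65, 10.63, 6.00, 6.00 and 6.00 in the Het-labelled cells. *Gadd45a*, a stress and repair gene, differed by 3.18. Among 17 detected genes of H3K9 methylation and heterochromatin, 4 were higher (*Jmjd1c*, *Kdm4b*, *Kdm3a* and *Atrx*) and *Ehmt1*, the partner of G9a, was lower (-1.25, and -0.45 without cell 18), and the median was -0.13. Among 19 Polycomb genes 3 were higher (*Aebp2*, *Suz12* and *Phf19*), 0 were lower, and the median was 0.34. The share of higher Polycomb genes was thus that of all detected genes, and without single cells *Aebp2* fell to 0.84 (cell 8) and *Phf19* to 0.35 (cell 21).

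Mesodermal genes leaned the other way. Of 34 measured genes of somatic mesoderm, 18 were detected, of which 7 were lower by at least 1 and 3 were higher. Over all detected genes, 10.5% were lower and 15.7% were higher. The median of the list was -0.53 (-0.93 without cell 81 and -0.83 without cell 119). *Isl1*, a cardiac and mesodermal homeobox gene, was at the floor in all 4 KO-labelled cells and read 10.32, 6.00, 9.40, 10.50, 10.76 and 6.00 in the Het-labelled cells. *Hand1*, a factor of extraembryonic and lateral mesoderm, read 8.09, 6.75, 6.00 and 9.21 against 9.51, 6.00, 10.19, 11.48, 11.22 and 10.46. The groups overlapped for *Hand1* through cell 98, and for *Isl1* through cells 98 and 119. Besides *Pdgfra*, the other lower members were *Cdx4*, *Mesp1*, *Mixl1* and *Snai1*, with differences from -1.82 to -1.38, and the higher ones were *Fgf8* (2.36), *Tbx6* (1.34) and *Rspo3* (1.15). Of these, *Mesp1* read -0.79 without cell 8, *Tbx6* 2.15 without cell 21 and *Rspo3* 0.41 without cell 98. *Mesp1*, an early mesoderm factor, was still at 11.07 and 11.55 in KO-labelled cells 18 and 81. The KO-labelled cells had 10 to 13 of the 34 genes above the floor and the Het-labelled cells 9 to 20.

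Of 27 measured *Hox* genes 8 were detected, 1 of them was lower by at least 1 and 0 were higher. Over all detected genes, 10.5% were lower and 15.7% were higher. The median of the *Hox* genes was -0.41, with values from -0.71 to -0.10 when each cell was left out. The lower member was *Hoxb1*, which was at the floor in all 4 KO-labelled cells and read 10.23, 6.00, 10.06, 11.46, 7.04 and 6.00 in the Het-labelled cells. Markers of other lineages were mixed. *Afp* and *Ttr* of endoderm, *Gata1* and *Hbb-bh1* of blood, and *Elf5* and *Eomes* of extraembryonic ectoderm were at the floor in all 10 cells. *Cdx2*, also fixed as a marker of extraembryonic ectoderm, was above the floor in 4 of 4 KO-labelled and 6 of 6 Het-labelled cells. *Lmo2* of blood and *Sox17* of endoderm were above it in 4 of 4 and 4 of 6. *Kdr* was above it in 4 of 4 and 1 of 6, and *Tal1* in 0 of 4 and 1 of 6. *Foxa2*, an endoderm factor, was above it in 2 of 4 KO-labelled and 0 of 6 Het-labelled cells. *Sox17*, *Trh* and *Apoe* were the higher members among 5 detected endoderm genes, whose median was 1.24 (0.48 without cell 18). *Sox17* also stands on the germ cell list. Among 5 detected extraembryonic ectoderm genes 3 were higher and 1 was lower, with a median of 1.05 that ranged from 0.59 to 1.73 when each cell was left out, and *Tfap2c* and *Hand1* are shared with the lists above. *Lmo2* (1.70) was the higher member among 6 detected blood and endothelial genes, whose median was -0.04. Of 5 detected epiblast and ectoderm genes, *Cdh2* and *Krt18* were lower, *Sox3* was higher, and the median of -0.64 ranged from -1.71 to -0.16 when each cell was left out.

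Among signalling genes, the FGF-MAPK list had members past 1 in both directions. Of 23 detected, 8 were higher by at least 1 and 2 were lower (15.7% and 10.5% of all detected genes), with a median of 0.31. Cell 119 had 7 of 25 measured members above the floor and the other 9 cells 16 to 21. Without cell 119, 6 members were higher and 3 were lower. *Spry1*, a feedback inhibitor of this pathway, read from 8.67 to 9.51 in the KO-labelled cells and from 6.00 to 8.53 in the Het-labelled cells, and the groups did not overlap. *Dusp6*, an ERK phosphatase, and *Etv5*, an ETS factor, differed by 2.09 and 1.77. *Etv5* was at the floor in cell 119, without which its difference was 0.84, and 0.16 when its probe sets were averaged. The FGF ligands were split, with *Fgf8* at 2.36 and *Fgf3* at -2.57. *Fgf3* and *Myc* were at the floor in all 4 KO-labelled cells and were highest in Het-labelled cells 100 and 118. For *Myc* these 2 cells read 10.83 and 11.36.

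The Wnt list had 23 detected genes, of which 4 were higher and 3 were lower by at least 1. Over all detected genes, 15.7% were higher and 10.5% were lower. The median of the Wnt list was -0.12. *Wls*, the carrier that Wnt ligands need for secretion, read 6.00, 9.43, 6.00 and 9.82 against 10.84, 8.02, 11.81, 11.45, 11.16 and 11.76, a difference of -3.03. *Wnt5b*, a noncanonical ligand, differed by -3.25, and its other probe set by -2.41. The higher members were the Wnt modulators *Notum*, *Sfrp1* and *Rspo3* and the scaffold *Apc*, of which *Sfrp1* read 0.92 without cell 81 and *Apc* 0.57 without cell 99. BMP and Nodal genes showed few such differences. In the BMP list 1 of 22 detected genes was higher (*Smad7*, an inhibitory SMAD) and 1 was lower (*Smurf2*, a ubiquitin ligase, -0.53 without cell 18), with a median of -0.31. In the Nodal and activin list 1 of 9 was higher (*Gdf3*) and 1 was lower (*Fst*, the activin antagonist follistatin), with a median of 0.34.

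Genes of G2 and M phase depended on a single cell. Of 28 detected G2 and M phase genes, 10 were higher by at least 1 and 0 were lower, with a median of 0.76. Over all detected genes, 15.7% were higher and 10.5% were lower. *Kif11*, a spindle motor, read 11.56, 10.89, 11.25 and 10.95 against 9.04, 10.03, 9.43, 6.00, 10.62 and 6.00, and *Cenpf* and *Cenpe*, kinetochore proteins, differed by 2.06 (1.29 without cell 119) and 2.14. Cell 119 had 10 of 29 measured G2 and M phase genes above the floor, and the other 9 cells had 26 to 29. Without cell 119 the median was 0.13, and 4 genes were higher. This cell also had the fewest genes above the floor on its array. Of 28 detected G1 and S phase genes 3 were higher and 5 were lower, with a median of 0.09, and the lower ones were *Gins2*, *Ccne2*, *Ccnd1*, *Cdk2* and *Cdc6*. Among 8 detected genes of the list named cell cycle inhibitors 4 were higher (*Rb1*, *Cdkn2d*, *Cdkn1a* and *Mdm2*). The median was 1.09 (0.66 without cell 81). *Mdm2* stands on this list but is not itself a cell cycle inhibitor.

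The remaining groups include genes of high level, where the spread between cells was small. Their counts stand against 15.7% higher and 10.5% lower by at least 1 over all detected genes. Ribosomal protein genes (33 detected, 1 higher, median -0.01), oxidative phosphorylation genes (46 detected, 2 higher, median 0.03) and proteasome genes (31 detected, 1 lower, median -0.06) stayed close to 0. Their scores (the mean level of a list's members) were between 11.57 and 12.97 in both groups, so their medians do not measure how far lists of lower level moved. Housekeeping genes had 2 higher and 2 lower of 16, and the list named glycolysis 2 higher and 1 lower of 20. The higher members of that list were *Pdk1* and *Pfkm*, with differences of 2.44 and 2.32. Each was without overlap, as were 1.11% of all detected genes on the higher side. Of 23 detected adhesion genes 7 were higher and 7 were lower, a split that depended on single cells. Without cell 8, 8 were higher and 2 were lower. Without cell 119 the counts were 7 and 4, and without cell 98 they were 7 and 9. Examples picked with their values known were *Cdh1*, *Cldn7* and *Esrp1* among the higher genes and *Cdh2* and *Cdh11* among the lower ones. The other adhesion genes past 1 are not named here. Of 20 detected imprinted genes 0 were higher and 3 were lower, *Igf2* (-2.15), *Phlda2* (-1.43) and *Slc22a18* (-1.18, and -0.66 without cell 119). *Phlda2* rested on KO-labelled cell 21, with 8.41 there and 12.86 to 13.55 in the other 9 cells, and its difference was -0.23 without that cell. Among 20 immediate early and stress genes 6 were higher, with *Fos*, *Ddit4* and *Ier5* between 2.44 and 2.80, and 3 were lower. Of 18 apoptosis and survival genes 2 were higher and 2 were lower, and of 4 detected methylation-sensitive germline genes 0 were past 1 in size.

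**Figure D4:**
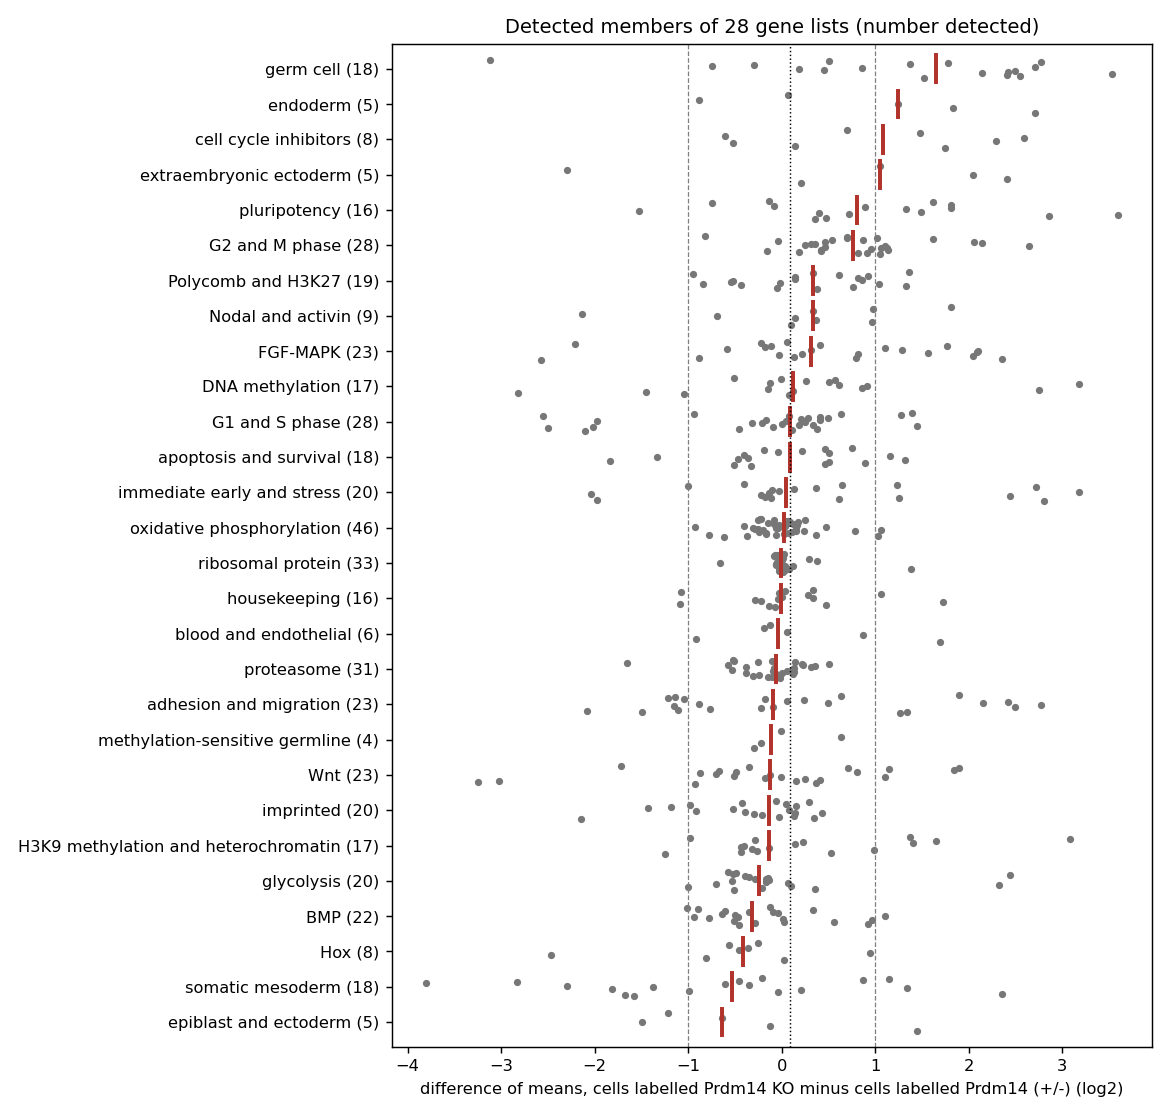
Differences of means (log2, KO-labelled minus Het-labelled) of the detected members (grey points) of 28 gene lists, ordered by their median (red line); numbers in parentheses count the members detected, dashed lines mark 1 and -1, and the dotted line is the median of all detected genes, 0.09. The germ cell list had the highest median (1.65), and the ribosomal, oxidative phosphorylation and proteasome lists clustered near 0.

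The Het-labelled cells were heterogeneous, and the cells at their extremes set many of the differences. Cell 98 resembled the KO-labelled cells in several genes at once. It had *Dppa3* at 12.92, *Klf2* at 11.52, *Sox2* at 12.46 and *Tet1* at 10.65. *Tet1* was about as high in Het-labelled cell 99. *Isl1* and *Hoxb1* were at the floor in cell 98, as in all 4 KO-labelled cells. *Dnmt3b*, *Uhrf1* and *Hand1* were also at the floor in cell 98, but above it in 2, 3 and 3 of the 4 KO-labelled cells. Cell 98 differed from the KO-labelled cells in *Xist* (12.42), *Sox4* (11.11), *Pdgfra* (7.73), *Tiam1* (9.26) and *Nr5a2* (at the floor). *Gja1*, a gap junction gene chosen after its values were seen, was at the floor in cell 98 and in all 4 KO-labelled cells, and read 10.69 to 12.35 in the other 5 Het-labelled cells. Without cell 98, the genes lower by at least 1 with no overlap numbered 99 in place of 26 (0.281% of those detected). The higher ones numbered 164 in place of 81 (0.875%). Leaving out any cell cannot lower these counts for genes whose difference stays past 1. Over the 10 cells left out in turn, the higher ones numbered 102 to 182 and the lower ones 34 to 99.

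Cells 100 and 118 stood at the other end. They had *Dppa3*, *Klf2*, *Tet1* and *Epcam* at the floor and *Prdm14* at 6.00 and 6.35, and they carried the highest *Pdgfra*, *Mesp1* and *Hand1* of the 10 cells. *Foxf1*, a factor of lateral mesoderm, read 11.16 and 9.99 in these 2 cells and was at the floor in the other 8. A list's score, the mean level of its measured members in a cell, sums this up. The germ cell score was 7.57 in cell 100 and 8.40 in cell 118, from 8.75 to 9.57 in the other Het-labelled cells and from 9.37 to 10.22 in the KO-labelled cells. The somatic mesoderm score was 8.30 and 8.14 in cells 100 and 118, 7.93 and 7.95 in cells 97 and 99, 7.13 and 6.87 in cells 119 and 98, and from 6.97 to 7.66 in the KO-labelled cells, a range that cell 119 shared. Without cell 100 the *Dppa3* difference was 2.93 and the *Prdm14* difference 1.98, and without cell 118 they were 2.93 and 2.05.

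**Figure D5:**
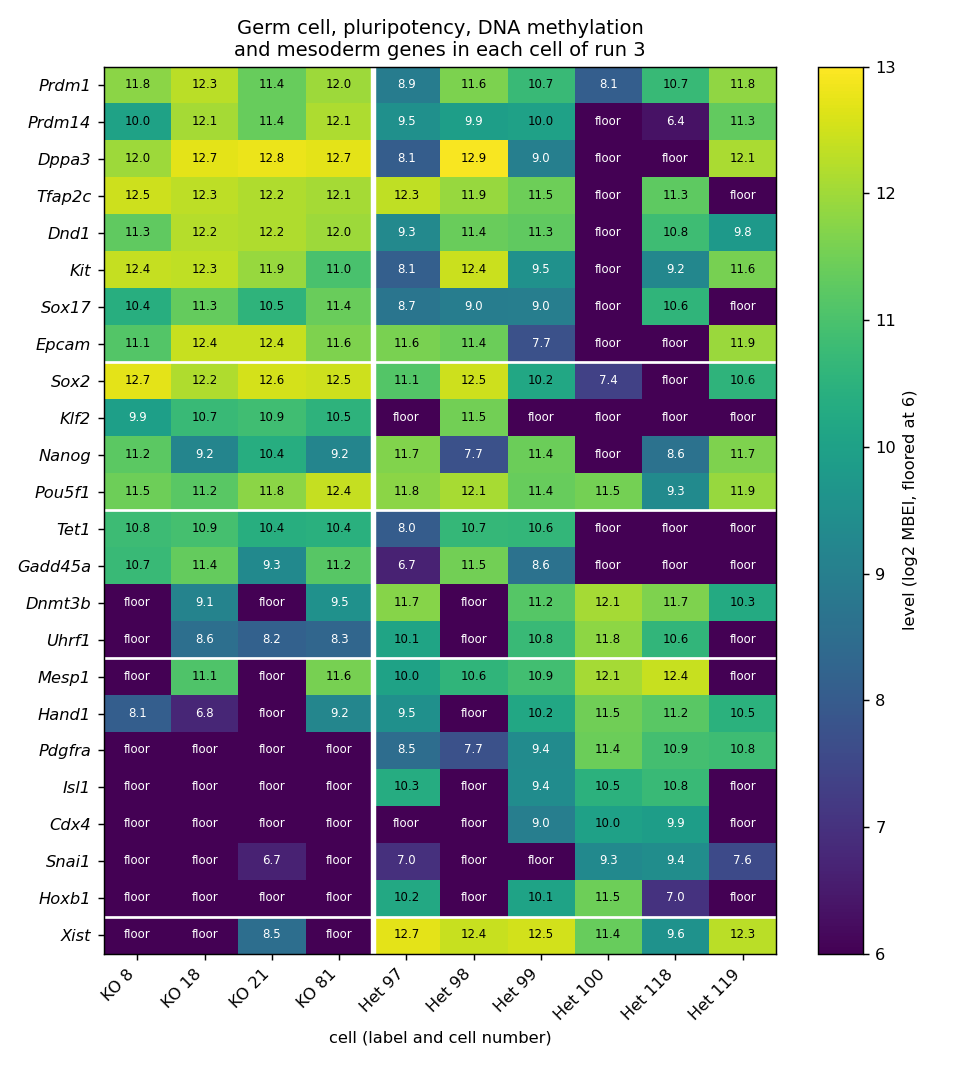
Level (log2 MBEI, colour scale from the floor of 6 to 13, values printed) of 23 germ cell, pluripotency, DNA methylation and mesoderm genes and of *Xist* in each of the 10 cells of run 3. Cell 98 shows *Klf2* and *Tet1* as the KO-labelled cells do and has *Dnmt3b* at the floor, whereas cells 100 and 118 have *Dppa3* at the floor and carry *Pdgfra*, *Mesp1* and *Hand1*.

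The Het-labelled cells of run 2 (7 cells) give a view of the same label in another run. Their mean lay between the means of the KO-labelled and Het-labelled cells of run 3 for 13 of the 15 highest genes and 14 of the 15 lowest. These genes were picked as extremes of run 3, which by itself favours a mean in between for any other cells. The counts therefore say nothing about the label. *Dppa3* had a median of 12.40 in the run 2 cells, with a range from 6.00 to 13.06, and *Prdm14* a median of 11.07, from 7.69 to 11.79. *Nr5a2* was above the floor in 5 of these 7 cells, at up to 11.16. *Sox4*, above the floor in 6 of 6 Het-labelled cells of run 3, was above it in 3 of 7 in run 2, and *Pdgfra* in 1 of 7. For *Dppa3*, the run 2 cells thus spanned both groups of run 3. *Xist* was above the floor in 4 of the 7 cells, *Uty* in 0 of 7 and *Eif2s3y* in 2 of 7, at up to 10.60.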

How the data were processed

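The members and gene lists were chosen with earlier results of these data known. The authors amplified the cDNA of single cells and deposited log2 MBEI values calculated with dChip 1.3 under the PM/MM difference model. How arrays were scaled to each other, and what a deposited 0 stands for, was not given in the sources used here. Of 45101 probe sets, 34958 had 1 gene symbol in the platform annotation, 932 had several and 9211 were unnamed. Each of 18194 genes was represented by its brightest probe set, judged by the mean of all 30 arrays. Of 713 listed genes, 60 were not found under their symbol.

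Values were floored at 6, and means over cells were compared by differences and by overlap of cells. A floored mean understates the distance to cells at the floor. Named genes were the 15 highest and 15 lowest differences among detected genes (above the floor in at least 3 cells) whose higher group averaged at least 8 and whose labels showed no overlap of cells, *Prdm14*, *Dppa3* and *Prdm1*, and list members. The comparison was tested on simulated cells with normally distributed values, in which only genes of high level and small spread were moved. That simulation does not test differences set by cells at the floor. No 2 arrays held identical values. Alternatives were other floors, quantile normalization, a shift of each array, medians, averaging the probe sets of a gene and leaving out each cell. Gene coordinates and promoter windows were those of RefSeq for GRCm38.p6, with 14369 genes matched to a window. Calculations were made in Python 3.11.15 with pandas 2.3.3 and NumPy 2.4.6, and plots with matplotlib 3.10.9.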

Additional observations from a re-analysis of the deposited data

Results flagged for a closer look

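In 11 of the 58 groups of cells examined for the named genes, a single cell lay far from the others of its label. Chance marks about 1 group in 20, and groups with most cells at the floor are marked by any cell above it. Among the KO-labelled cells, *Dppa3* was lowest in cell 8 (11.98, next value 12.71), *Xist* was above the floor in cell 21 alone (8.53), *Btg1* was at the floor in cell 21 (6.00, next value 9.25), *Brms1* was above the floor in cell 81 alone (6.95) and *Sec22b* was at the floor in cell 81 (6.00, next value 9.05). Among the Het-labelled cells, *Nr5a2* was above the floor in cell 99 alone (7.33), *Dyrk3* and *B3gnt2* in cell 97 alone (6.57 and 7.93) and *Traf3ip2* in cell 98 alone (8.00). *Palb2* was highest in cell 100 (10.01, next value 7.38), and *Sec22b* was lowest in cell 98 (9.72, next value 10.42).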

How the results depend on the processing

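Of 152 listed or named genes with a difference of at least 1 in size, 2 changed sign under any of the 17 alternatives, *Apc* (-0.02 with its probe sets averaged) and *Rspo3* (-0.67 with medians over cells), and no list median of that size did. The counts of genes depended on the floor and on the probe sets. With a floor of 4 on the log2 scale 2319 genes were higher and 1567 were lower by at least 1, and 526 and 327 with a floor of 8. When the probe sets of a gene were averaged the counts were 835 and 537, and for genes above the floor in all 10 cells, a filter chosen after seeing the data, 162 and 121. The cause was not tested beyond the alternatives' construction, in which a higher floor shortens every distance to a cell at the floor. Quantile normalization gave 1309 higher and 1070 lower genes. Leaving out each cell in turn gave 1378 to 1661 higher and 930 to 1137 lower genes. The genes past 1 without overlap numbered 102 to 182 higher and 34 to 99 lower when a cell was left out, which by construction cannot be fewer for genes whose difference stays past 1. They numbered 144 to 182 and 54 to 60 without each of the KO-labelled cells 8, 18, 21 and 81 in turn, 164 and 99 without cell 98, and 125 and 62 without cell 119, and the lower ones 42 without cell 118. The *Prdm14* difference ranged from 1.98 to 3.04 and the *Dppa3* difference from 2.93 to 4.31 when a cell was left out. Some list medians changed sign. That of the Wnt list ranged from -0.54 to 0.21 over 17 alternatives and was of the other sign in 5, and that of the G1 and S phase list from -0.09 to 0.18, also in 5. Medians also changed sign in 7 alternatives for the housekeeping and oxidative phosphorylation lists and in 6 for the methylation-sensitive germline list. They did so in 5 for blood and endothelial genes, 4 for adhesion and ribosomal protein genes and 3 for H3K9 and heterochromatin genes. For imprinted, proteasome, apoptosis and immediate early genes they did so in 1. The medians of the DNA methylation (0.06 to 0.35), pluripotency (0.30 to 1.5), BMP (-0.53 to -0.11), Nodal and activin (0.11 to 0.40) and Polycomb lists (0.09 to 0.45) kept their sign. No paired analysis was possible because the labels name no embryo by which cells could be paired. Each array holds 1 cell, and a transcript listed at 0 may have been missed in amplification, so that absence from a cell cannot be read from these values.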
